A study of Mus musculus with 4 samples.

Results

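Accessible chromatin regions that were called in all 4 libraries, but whose called stretch was broader in wild-type (WT) than in Ezh2 knockout (KO) macrophages, numbered 726. They were chosen from 53062 regions called in every library and from 91858 regions in all. Peaks of the 4 lists were merged wherever they overlapped by at least 1 bp. Within each merged region, the bases covered by a library's peaks were summed. A region was kept when the smaller WT value was at least 1.5 times the larger KO value. These covered bases chose the regions, so they are given as a description and carry no test.

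Open DNA was mapped by ATAC-seq, where an engineered transposase inserts adapters into accessible chromatin, in macrophages grown from mouse bone marrow. KO cells came from Ezh2fl/fl;LysM-Cre+/- mice, in which Cre is driven from the lysozyme locus that is active in myeloid cells, and WT cells came from littermate controls. The macrophages were differentiated over 7 to 10 days using L929-conditioned medium. All 4 libraries, 2 per genotype, came from cells exposed for 24 hours to conditioned medium of the murine hepatoma line Hepa1-6. No library of unexposed cells was among them. The labels do not say whether the 2 libraries of a genotype came from separate mice, so any spread given here is only the spread between libraries.

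Ezh2 is the catalytic subunit of Polycomb repressive complex 2 (PRC2), the enzyme complex that places methyl groups on H3K27 and holds many developmental genes silent. Open DNA marks promoters and enhancers that transcription factors occupy. In broad peak calling, neighbouring enriched stretches are joined, so the width of a peak records how far enrichment over the local background extends. In bulk chromatin, a narrower peak in every cell and an open state in fewer cells cannot be told apart.

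The bases that set the regions apart can be read at 4 promoters. These are the protein-coding genes, apart from 1 with a second gene's start inside the window, whose 250 bases before the start held at least 100 bases covered in both WT libraries and in no KO library. They were chosen after their values were seen. The sequences are from RefSeq (GRCm38.p6, the assembly behind mm10), run 5′ to 3′ on the strand of the gene and end 1 base before its listed start. Capitals mark the bases covered by peaks of both WT libraries and of neither KO library.
Ramp1, chr1:91179572-91179821, + strand: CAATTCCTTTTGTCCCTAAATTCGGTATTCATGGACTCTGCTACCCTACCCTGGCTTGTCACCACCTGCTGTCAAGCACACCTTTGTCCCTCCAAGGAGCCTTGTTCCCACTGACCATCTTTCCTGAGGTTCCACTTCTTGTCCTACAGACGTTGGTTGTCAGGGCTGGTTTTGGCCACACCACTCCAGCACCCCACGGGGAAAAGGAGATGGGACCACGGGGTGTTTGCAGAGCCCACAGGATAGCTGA
Slk, chr19:47579769-47580018, + strand: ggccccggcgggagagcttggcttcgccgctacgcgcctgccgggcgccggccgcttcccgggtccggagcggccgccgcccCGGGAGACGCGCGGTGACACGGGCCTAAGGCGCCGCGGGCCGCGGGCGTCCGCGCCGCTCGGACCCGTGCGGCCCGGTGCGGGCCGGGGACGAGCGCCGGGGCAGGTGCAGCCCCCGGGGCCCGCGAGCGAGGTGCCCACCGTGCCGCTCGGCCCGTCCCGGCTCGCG
Magohb, chr6:131293245-131293494, - strand: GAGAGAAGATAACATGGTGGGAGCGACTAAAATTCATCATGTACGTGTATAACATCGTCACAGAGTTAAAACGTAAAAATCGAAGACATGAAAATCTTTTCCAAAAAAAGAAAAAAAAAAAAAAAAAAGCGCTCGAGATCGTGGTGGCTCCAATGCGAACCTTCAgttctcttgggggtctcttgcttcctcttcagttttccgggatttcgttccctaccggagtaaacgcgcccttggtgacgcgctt
Osbp2, chr11:3774669-3774918, - strand: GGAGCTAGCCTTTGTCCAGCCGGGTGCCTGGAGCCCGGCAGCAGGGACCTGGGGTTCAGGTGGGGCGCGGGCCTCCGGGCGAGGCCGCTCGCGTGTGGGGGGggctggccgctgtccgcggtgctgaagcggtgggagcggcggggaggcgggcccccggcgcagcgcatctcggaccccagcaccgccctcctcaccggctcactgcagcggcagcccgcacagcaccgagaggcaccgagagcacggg

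At Ramp1, which encodes a partner of the receptor for the neuropeptide CGRP, all 250 bases lay in both WT peaks and outside the KO peaks. Each KO library had 2 peaks in this region, on either side of the window, and from first to last peak base the ratio was only 1.0. Its peaks covered 563 and 464 bp in KO, against 1036 and 993 bp in WT. At Slk, a STE20-like kinase gene, the 168 bases next to the start were covered in WT alone, and the region covered 676 and 654 bp in KO, against 1325 and 1390 bp in WT. The order was the other way round at Magohb, which encodes an exon junction protein: there the 165 bases farthest from the start were covered in WT alone, in a region of 121 and 146 bp in KO, against 309 and 513 bp in WT. At Osbp2, an oxysterol-binding protein gene with a listed start inside the gene, the farthest 102 bases were covered in WT alone, with 132 and 161 bp in KO, against 397 and 462 bp in WT.

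The number of regions broader in WT lay within the range that other pairings of the same libraries gave. They made up 1.37% of the 53062 shared regions, and the mirror rule found 579 regions broader in KO (1.09%). The 4 libraries can also be split across genotype. Regions broader in both replicate 1 libraries numbered 304 (0.573%), and regions broader in both replicate 2 libraries 1115 (2.1%). The remaining split gave 479 regions (0.903%) broader in KO replicate 1 and WT replicate 2, and 685 (1.29%) broader in KO replicate 2 and WT replicate 1. Of the 3888 calls over the 3 splits, 1305 followed genotype (33.6%), 1419 followed replicate number (36.5%) and 1164 followed the remaining split (29.9%). Genotype therefore took close to an equal part of the calls.

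**Figure D1:**
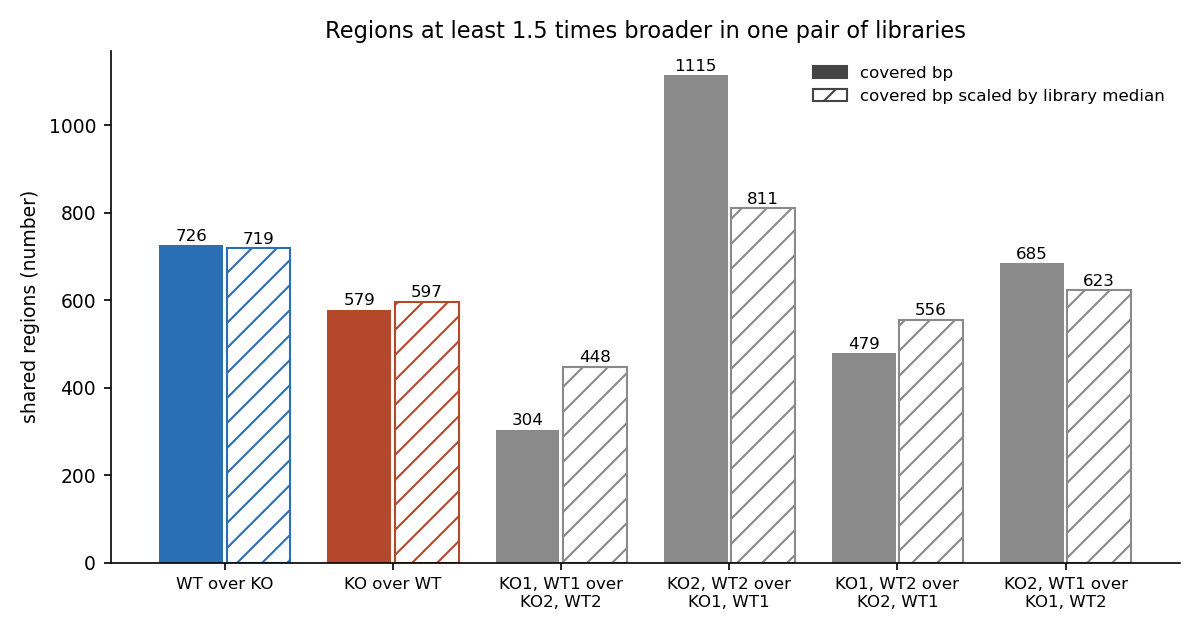
Number of shared regions (y axis) at least 1.5 times broader in one pair of libraries than in the other pair, for each of the 6 ordered pairings (x axis). Filled bars use covered bp and hatched bars covered bp divided by the library's median, and the 726 regions broader in WT lie below the 1115 broader in both replicate 2 libraries.

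Summed over shared regions, widths differed less between genotypes than between replicates. Over the shared regions, peaks covered 24.1 and 26.0 Mb in KO and 24.6 and 25.6 Mb in WT, and the median region had 365 and 401 bp in KO and 377 and 395 bp in WT. Neither measure was told apart between genotypes (two-sided exact permutation test, p = 1.0 for both, where 2 libraries against 2 cannot go below 0.333). With each library divided by its median, regions broader in WT numbered 719, those broader in KO 597, and those broader in both replicate 2 libraries 811. Of the 726 regions, 650 still met the rule. Leaving out a library makes the rule easier to meet, and the counts broader in WT were 2063 without KO replicate 1, 3708 without KO replicate 2, 3271 without WT replicate 1 and 2411 without WT replicate 2. The counts broader in KO were 3132, 1967, 2048 and 2669 in the same order, so KO had more such regions without KO replicate 1 and without WT replicate 2.

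Most regions passed the rule by a modest margin. The median ratio of the smaller WT to the larger KO value was 1.73, with 570 regions (78.5%) from 1.5 to under 2, 140 from 2 to under 3 and 16 above that. The median region had 174 and 184.5 bp covered in KO, against 413 and 416 bp in WT. Under 200 bp were covered at 445 regions (61.3%) in KO replicate 1 and 400 (55.1%) in KO replicate 2, against 9 and 10 regions in WT. Over all shared regions, that share was 22.0% and 16.9% in KO and 19.6% and 17.2% in WT. The 3 regions just inside the threshold had a ratio of 1.5 and lay inside Nrbf2, inside Ptprj and far from genes on chromosome 1. Just outside it were regions near Sephs1, inside Adap2 and at an end of Apoe, the apolipoprotein E gene, which had 211 and 176 bp in KO, against 316 and 340 bp in WT.

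The extra WT bases were usually on one side of a stretch that all 4 libraries shared. All 4 libraries had bases in common at 714 of the 726 regions, with a median of 142.5 such bases. In 706 regions some bases were covered in both WT libraries and in no KO library, 144 at the median and 135866 in total. At least 80% of them lay on one side of the KO peaks in 583 of those 706 regions (82.6%), and both sides held over 20% each in 73. Every library had a single peak at 672 of the 726 regions. At 53 regions some WT-alone bases lay between KO peaks. Measured from the first to the last peak base, 682 of the 726 still met the rule and at 34 the smaller WT span was below the larger KO span. The 34 include the regions at Asf1a, Sft2d1 and Slc35c2 and 1 of the regions near Gm17019, with ratios of 0.94, 0.91, 0.99 and 0.98.

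**Figure D2:**
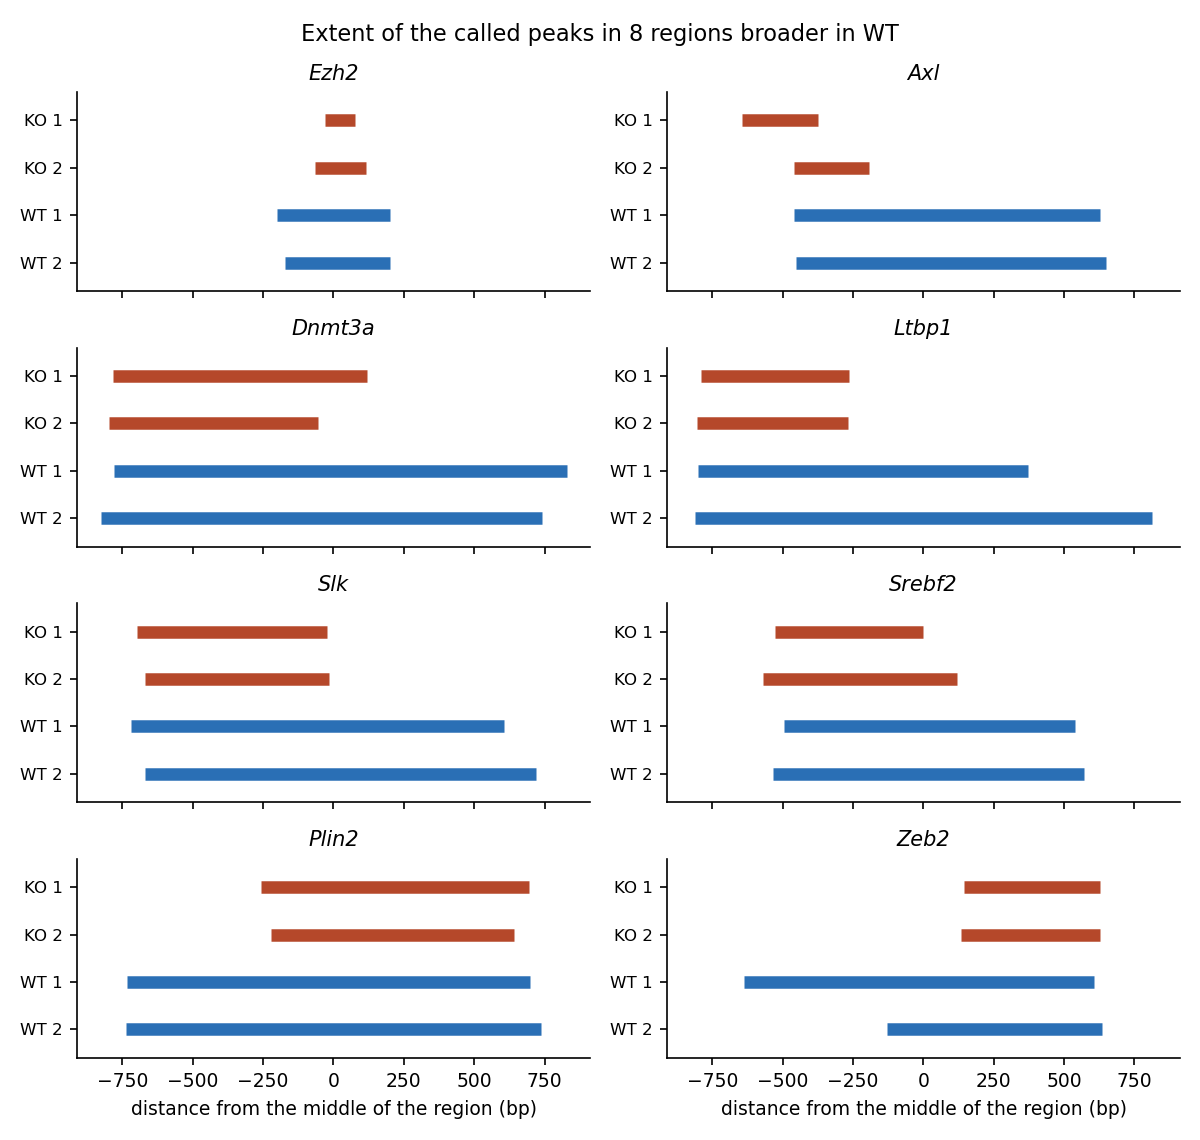
Extent of each library's peaks at 8 regions broader in WT, in bp from the middle of the region (x axis), with KO libraries in red above WT libraries in blue. At Ezh2 the WT peaks reach past the KO peaks on both sides, and at the other 7 the difference lies mainly on one side.

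The knocked-out gene itself held one of these regions, and it stood apart in a measure the rule did not threshold. Ezh2 lies on the minus strand of chromosome 6, and the region at 47532495 to 47532897 is inside the gene, 2221 bp from its 3′ end. The catalytic SET domain is encoded towards that end of the gene. The labels do not give which part of the gene is floxed, and exons were not analysed here. The region covered 106 and 182 bp in KO, against 403 and 372 bp in WT. Its deposited fold, the authors' enrichment over local background, was 3.61 and 3.42 in KO, against 5.66 and 7.10 in WT. Both KO values were below both WT values in width and in fold.

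The fold separation at Ezh2, the smaller WT over the larger KO fold, was 1.57. It ranked first among the 726 regions, ahead of a region of 1.43 at Mospd3, and second among all 53062 shared regions. By width alone the Ezh2 region ranked 136 of 726. The other shared regions near Ezh2 did not show this. The region at its promoter end (47594084 to 47595538) covered 1350 and 1351 bp in KO and 1378 and 1408 bp in WT. A region deep inside the gene (47562290 to 47562677) covered 273 and 267 bp in KO and 152 and 382 bp in WT, so the genotypes overlapped.

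Elsewhere, regions broader in WT seldom had both WT folds above both KO folds. Both KO folds exceeded both WT folds at 257 of the 726 regions (35.4%), against 21.9% of all shared regions. The reverse held at 73 (10.1%), against 14.5% of all. Where a library had several peaks in a region, its highest fold was used. Of the regions at genes of the lists given below, those at Mylip, Srebf2, Plin2, Zeb2, Msr1 and Spp1 had both KO folds higher. Besides Ezh2, those at Nos2 and Cdkn1b had both WT folds higher. At Nfkbia, Jarid2, Bach1, Pax8 and Usp18 the folds overlapped. Both KO folds were also higher at Ramp1, Slk, Cxcr4 and Syk, and the folds overlapped at Magohb, Osbp2 and Cd38. Among regions broader in KO the pattern was mirrored, with WT folds higher at 220 of 579 (38%) and KO folds higher at 55 (9.50%). The median log2 ratio of KO to WT mean fold was 0.08 in regions broader in WT, -0.10 in regions broader in KO and 0.02 over all shared regions. By MACS2's definition a broad peak's fold is a mean over its called width, and it comes from the same contrast, so no test was made.

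**Figure D3:**
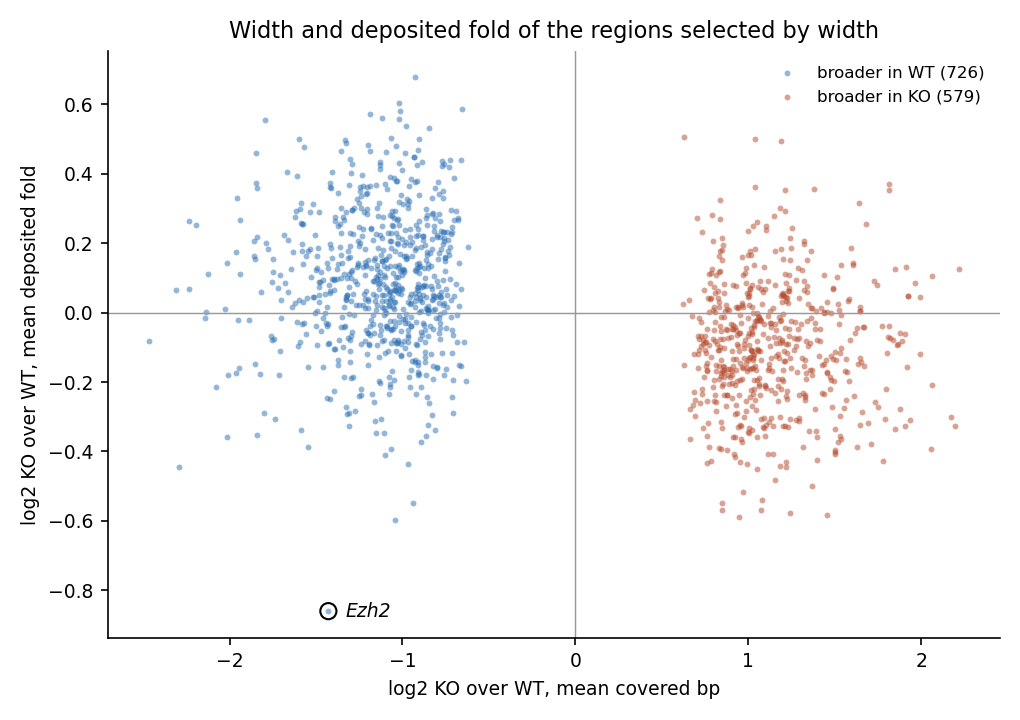
Each point is a region, 726 broader in WT (blue) and 579 broader in KO (red), with log2 KO over WT of the mean covered bp (x axis) and of the mean deposited fold (y axis). Ezh2, circled, is the lowest point, whereas most regions broader in WT lie above 0 on the y axis.

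The widest gaps in covered bases were near genes of many functions. The largest was inside Axl, which encodes a receptor kinase for the uptake of apoptotic cells, 8506 bp from a gene end (chromosome 7, 25765006 to 25766298). It covered 272 and 268 bp in KO, against 1087 and 1099 bp in WT, and its fold was 3.18 and 4.05 in KO and 3.40 and 3.15 in WT, so the folds overlapped. The KO peaks overlapped each other only in part, and neither reached the far side of the WT peaks. Inside Dnmt3a, a de novo DNA methyltransferase gene, a region on chromosome 12 (3806288 to 3807942) covered 903 and 743 bp in KO, against 1606 and 1569 bp in WT. It holds listed start sites of that gene, and another region assigned to Dnmt3a was broader in KO. Inside Marchf6, which encodes a ubiquitin ligase of the endoplasmic reticulum, 438 and 580 bp were covered in KO, against 1286 and 1316 bp in WT. The region inside Srgap2 covered 355 and 622 bp in KO, against 1373 and 1452 bp in WT. Others of the 12 largest gaps lay inside Plxna2 (a semaphorin receptor gene), Birc6 (an inhibitor of apoptosis gene) and Cspg5 (a chondroitin sulfate proteoglycan gene) and near Cyp4a12a and Gm17019. The region near Gm17019 was weak in every library, with folds of 2.60 and 2.36 in KO and 2.34 and 2.25 in WT. These were at percentiles 1.25 and 0.64 of the KO lists and 0.36 and 0.23 of the WT lists.

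By ratio, the region near Ppp1r26, a phosphatase regulator gene, came first at 4.44. It covered 122 and 126 bp in KO, against 560 and 607 bp in WT. Taf4, which encodes a subunit of the general transcription factor TFIID, followed at 4.43 with 106 and 130 bp in KO, against 576 and 578 bp in WT. Taf4 was also 1 of the few with both WT folds above both KO folds, at 3.38 and 3.53 in KO, against 5.26 and 4.15 in WT. Nkain1 (4.01), Axl, Tmem154 (3.77), Htr6, Enkur, Pafah1b2, Cyp4a12a, Spata13 and 2 regions over 50 kb from a gene made up the rest of the first 12, down to 3.46. In each of the 12, the KO values were at most 301 bp.

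Gene ends were less common among these regions than among shared regions. Within 1 kb of an end of a protein-coding gene lay 95 regions (13.1%, 95% Clopper-Pearson interval 10.7 to 15.8, for counting error only), against 22.3% of all shared regions. The share was 16.1% (13.2 to 19.3) for regions broader in KO, and 12.5% to 15.5% for the 4 crossed pairings. A low share thus accompanied each way of choosing regions by unequal width. The gap to all shared regions lay mainly in the wider ones. From 800 bp the share was 26.5% in regions broader in WT, 31.7% in those broader in KO and 51.2% in all, and from 500 to under 800 bp it was 13.3%, 13.9% and 22.9% in the same order. From 300 to under 500 bp it was 7.28%, 7.51% and 9.38%, and under 300 bp it was 5.66%, 6.82% and 6.57%, where the sets were close. Inside a protein-coding gene lay 369 regions (50.8%, 47.1 to 54.5), against 52.2% of regions broader in KO, 48.0% to 51.4% in the crossed pairings and 46.3% of all shared regions. Over 50 kb from any gene end were 174 (24.0%), against 17.4% of regions broader in KO, 19.1% to 23.4% in the crossed pairings and 18.4% of all.

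**Figure D4:**
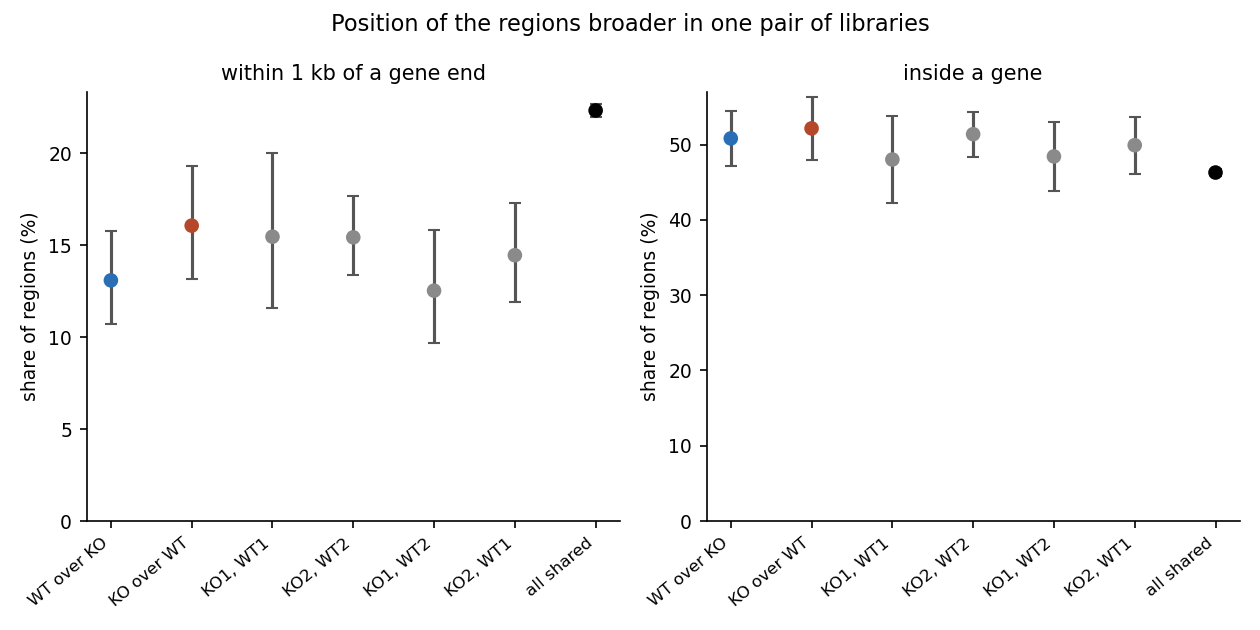
Share of regions (y axis, %) within 1 kb of a gene end (left) and inside a protein-coding gene (right) for regions broader in WT, broader in KO, broader in each crossed pair of libraries named on the x axis, and all shared regions. Bars are 95% Clopper-Pearson intervals for counting error, and all 6 chosen sets lie below the 22.3% of all shared regions in the left panel.

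Large gaps at gene ends were found at Slk, described above, and at Ltbp1. Ltbp1, which encodes a binding protein of latent TGF-beta, had 528 and 536 bp in KO, against 1174 and 1624 bp in WT. At Asf1a, a histone chaperone gene, the region covered 756 and 707 bp in KO, against 1329 and 1433 bp in WT, with 2 peaks in each KO library and 1 in each WT library. Lin28b, which encodes a repressor of let-7 processing, had 484 and 233 bp in KO, against 1044 and 1287 bp in WT. Uty, the Y-linked paralog of the H3K27 demethylase gene Kdm6a, had 455 and 414 bp in KO, against 1014 and 1137 bp in WT. Slc35c2, Nkain1, Sft2d1 and Gm38469 were also among the 10 largest gaps at gene ends.

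Of the 95 gene-end regions, 60 were at the 5′ end, 21 at the 3′ end and 14 at genes without a strand in the start-site table. The 5′ share of those with a strand was 74.1%, against 79.7% for regions broader in KO and 87.6% for all shared regions. On chromosomes with listed start sites, 10.8% of regions broader in WT lay within 1 kb of one. That share was 15.5% for regions broader in KO and 21.1% for all shared regions. A listed start site lay inside 56 of 702 regions broader in WT. Where the starts were on 1 strand, at 48 of them, bases covered in WT alone were more numerous downstream of the KO peaks at 26, upstream at 14 and equal at 8. They totalled 9007 bases downstream and 2535 upstream. This tally was made for regions broader in WT alone, so whether it differs from other regions of unequal width was not tested.

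Of the regions that overlapped a listed promoter, those at Cxcr4, Syk and Cd38 are given as examples picked after their values were seen, and those at Zeb2, Plin2 and Srebf2 are given with their gene lists. Cxcr4, a chemokine receptor gene, had 685 and 632 bp in KO, against 1051 and 1155 bp in WT. Syk, a kinase gene downstream of Fc receptors and C-type lectins, had 419 and 433 bp in KO, against 688 and 786 bp in WT. Cd38, which encodes an NAD-consuming ectoenzyme, had 268 and 136 bp in KO, against 564 and 581 bp in WT. At Syk the region overlapped 1 of its listed promoters, 14028 bp from the nearest gene end.

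The 75 upstream windows of 250 bases that overlapped a region broader in WT had a median GC content of 56.8%, against 59.2% for regions broader in KO, 60.8% for all shared regions and 52.4% for all promoters in the table. Motifs were searched on both strands by their letters. The KLF/SP motif GGGCGG was in 33 of 75 windows (44.0%), against 52.1% of windows at regions broader in KO, 59.9% at all shared regions and 32.7% of all promoters. The C/EBP motif TTGCNNAA was in 12 (16.0%), against 11.7%, 7.45% and 9.57% in the same order. These 12 include overlapping windows of Gm45351 and of Pfdn6 that were counted separately. The PU.1 motif (GAGGAAGT) was in 2 windows, AP-1 (TGANTCA) in 1, IRF in 1, RUNX (TGTGGT) in 5, the E-box (CACGTG) in 7, NF-kB in 12, CTCF in 2 and NRF2 in 2. At regions broader in KO these were in 5.32%, 4.26%, 3.19%, 12.8%, 14.9%, 27.7%, 0.0% and 1.06% of windows, in that order. At shared regions these were in 2.97%, 4.19%, 2.69%, 10.5%, 8.76%, 23.2%, 1.70% and 2.18% of windows, in that order. The 75 windows came from 67 genes and 58 regions, so they are not independent sequences. Parts of a window can lie outside the region it overlaps. The motifs can overlap each other, and a match does not show that a factor binds.

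Genes of macrophage and Polycomb biology held these regions at about the rate of all shared regions. Over 21 lists with 349 genes, 15 of 1054 shared regions were broader in WT (1.42%, against 1.37% of all shared regions), and 20 were broader in KO (1.90%, against 1.09%). Among PRC2 and H3K27 demethylase genes, 2 of 52 regions (3.85%) were broader in WT, at Ezh2 and Jarid2. Another 2 (3.85%) were broader in KO, at Kdm6b and Mtf2. Jarid2, an accessory subunit of PRC2, had 190 and 140 bp in KO, against 423 and 760 bp in WT. Hox genes had none in either direction among 14 shared regions, and other developmental regulators had 1 broader in WT, inside Pax8, and 2 broader in KO, at En1 and Pax6, among 64.

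Lipid and cholesterol genes had 3 of 116 regions broader in WT (2.59%, against 1.37% of all shared regions). Another 2 were broader in KO (1.72%, against 1.09%). With so few regions, no difference from all shared regions was tested. Srebf2, the master regulator of cholesterol synthesis, had 525 and 687 bp in KO, against 1032 and 1104 bp in WT at its gene end, and another of its regions was broader in KO. Mylip, whose product degrades the LDL receptor, had 198 and 202 bp in KO, against 665 and 563 bp in WT. Plin2, which encodes a lipid droplet coat protein, had 953 and 864 bp in KO, against 1432 and 1473 bp in WT. Rounded to 1 decimal, Plin2 and Srebf2 both had the threshold ratio of 1.5.

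Of 113 regions of tumour-associated macrophage genes, 2 were broader in WT (1.77%, against 1.37% of all shared regions). Both were near Spp1, the osteopontin gene. In KO, 1 was broader (0.885%, against 1.09%), at Cd9. The nearer Spp1 region, 8275 bp away, had 455 and 458 bp in KO, against 866 and 873 bp in WT. The farther, 26633 bp away, had 308 and 518 bp in KO, against 859 and 1083 bp in WT. Among macrophage identity genes, 2 of 158 regions were broader in WT (1.27%), at Zeb2 and near Bach1. Another 2 were broader in KO (1.27%), at Cebpa and Spi1. Zeb2, a transcription factor gene, had 484 and 492 bp in KO, against 1243 and 766 bp in WT, where the WT libraries were far apart.

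**Figure D5:**
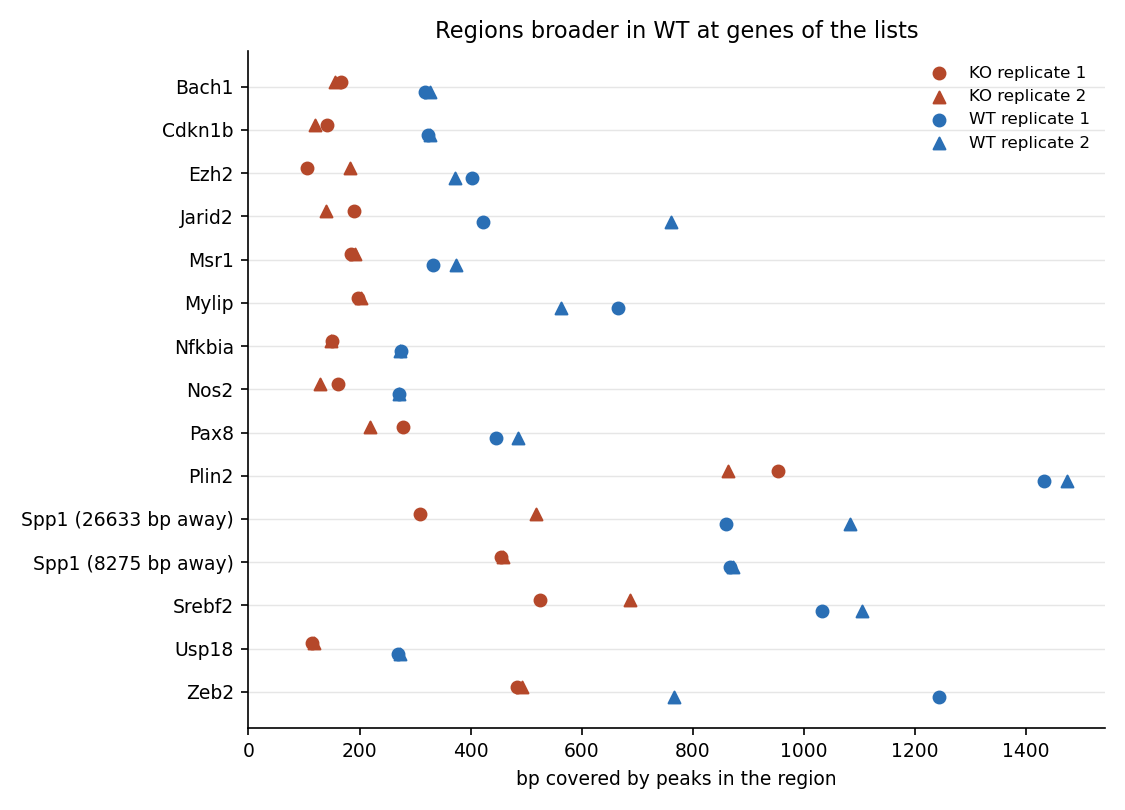
Covered bp (x axis) in each library at the 15 regions broader in WT that lie nearest to a gene of the lists (y axis), KO in red and WT in blue, replicate 1 as circles and replicate 2 as triangles. The WT values exceed the KO values in each row, as the rule requires, and replicates differ most at Jarid2 and Zeb2.

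Activation genes went in both directions, with few regions in either. Of all shared regions, 1.37% were broader in WT and 1.09% in KO. In the inflammatory, alternative activation, interferon and cell cycle lists, 1.4%, 0.81%, 1.11% and 1.2% were broader in WT, in that order. Broader in KO were 2.8%, 1.61%, 2.22% and 1.2%. No list was tested against all shared regions, so the counts, including those of none, are a description. Inflammatory genes had 2 of 143 regions broader in WT and 4 broader in KO (Cd86, Il1a, Marco and Tlr4). Nos2, the inducible nitric oxide synthase gene, had a region inside it with 161 and 128 bp in KO, against 271 and 271 bp in WT, and Nfkbia, which encodes an NF-kB inhibitor, a region with 151 and 149 bp in KO, against 275 and 273 bp in WT. Of 124 regions of alternative activation genes, 1 was broader in WT, near the scavenger receptor gene Msr1, with 185 and 191 bp in KO, against 332 and 373 bp in WT, and 2 were broader in KO, at Kdm6b and Mgl2. The interferon list had 1 of 90, inside Usp18, which removes ISG15 from proteins, with 115 and 118 bp in KO, against 269 and 272 bp in WT, and 2 were broader in KO, at Ddx58 and Ifnar1. The cell cycle list had 1 of 83, near the CDK inhibitor gene Cdkn1b, with 141 and 119 bp in KO, against 324 and 327 bp in WT, and 1 was broader in KO, at Cdkn1a. Antigen presentation genes had none of 47 broader in WT and 1 broader in KO, at H2-DMa. Macrophage markers had 47 shared regions over 8 genes, and markers of the other cell types had 4 to 12 per list, and no region of either kind was broader in WT. Broader in KO were 1 macrophage marker region (Spi1), 1 of 4 neutrophil marker regions (S100a9) and 1 of 9 osteoclast marker regions (Acp5).

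Few genes held more than 1 of these regions, and the regions were spread over the genome. Of the 726, 552 were assigned to 540 genes within 50 kb, of which 12 had 2 and none had 3. Besides Spp1 these were Gm17019, Hectd4, Tgfbi, Rnf19b, Pou2f2, Pex14, Ctdp1, Kcnj10, Plet1, Dgkh and Lig3. A further region assigned to Gm17019 was broader in KO. Tgfbi, a TGF-beta-induced matrix protein gene, had 255 and 481 bp in KO, against 735 and 756 bp in WT at 1 region, and 258 and 172 bp in KO, against 890 and 394 bp in WT at the other. At Pou2f2, which encodes the transcription factor OCT2, the pair had 183 and 222 bp in KO, against 452 and 450 bp in WT, and 205 and 220 bp in KO, against 351 and 368 bp in WT. At Rnf19b, a ubiquitin ligase gene, the region inside the gene had 138 and 145 bp in KO, against 502 and 428 bp in WT. The share of shared regions that were broader in WT ran from 0.982% on chromosome 19 to 1.74% on chromosome 4 over the autosomes, and was 1.66% on chromosome X. Chromosome Y had 1 of 45, the region at Uty.

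Neighbouring regions were, at the median, equally wide in both genotypes. The nearest other shared region, within 50 kb of 680 of the 726 and 7056 bp away at the median, had a median log2 KO over WT width of 0.00. It was narrower in KO in 339 of the 680 (49.9%), against 50.2% over all shared regions. A region called in both WT libraries and in neither KO library lay within 10 kb of 17 of the 726 (2.34%), against 2.94% of all shared regions. The reverse, a region called in KO alone, lay near 19 (2.62%), against 2.37%. Only 4 adjacent pairs of regions broader in WT were within 10 kb of each other.

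Regions chosen by unequal width were of ordinary size and below average strength. The merged region had a median of 492.5 bp in those broader in WT, against 549 bp in those broader in KO and 513 bp in all shared regions. The weakest library's percentile of fold within its own list was 33.1 at the median region, against 32.2 for regions broader in KO, 29.0 to 34.6 for the crossed pairings and 49.3 for all shared regions. The share broader in WT was highest at 300 to under 500 bp (316 regions, 1.92%), where the share broader in KO was 1.3%. Each crossed pairing also had its highest share in this size range, from 0.687% to 2.79%, so the peak was not particular to regions broader in WT. From 800 bp upwards the shares broader in WT and in KO were 1.34% and 1.36%.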

How the data were processed

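ATAC-seq peak lists of 4 libraries, 1 per library and not pooled, were used as deposited. The submitters' processing notes name fastp, Bowtie2, MACS2 and the build mm10, and neither versions nor the read shift nor the filter on peaks is stated there. Libraries were placed in their groups by title. In the deposited lists, the fold is enrichment over local background, the −log10 p-value and q-value are the peak caller's, and the score is a whole number of about 10 times the −log10 q-value. The lists held 67055 and 71111 peaks in KO and 69210 and 72887 in WT. The files give no read counts, so depth is unknown.

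Regions were merged and measured with Python 3.11.15, pandas 2.3.3, numpy 2.4.6 and scipy 1.17.1. The code for the merging and the width rule was checked on simulated peaks of known width. That check does not measure how often the rule calls regions without a true difference. Genes came from RefSeq (GRCm38.p6, 21887 protein-coding genes). A region was assigned to the gene with the nearest end, within 50 kb. Start sites, strands and promoter sequences were available for 27025 genes, none on chromosome 18. The regions, gene lists and tests were chosen with earlier results of these data known. Named regions are those at Ezh2, the 12 of largest ratio and of largest difference, the 10 of largest difference at gene ends, those at listed genes, those of the first 10 genes with 2 and the 3 on either side next to the threshold. A region that meets this rule is not reported here. Alternatives changed the threshold, the width measure, the scaling, the peaks used, the merging, the libraries and the distances.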

Additional observations from a re-analysis of the deposited data

How the results depend on the processing

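The share of calls that followed genotype, 33.6% as reported, ranged from 32.6% to 35.1% under the alternatives that kept all 4 libraries, and from 32.5% to 35.3% with 1 library left out. Counts broader in WT and in KO were 2335 and 2061 (4.4% of shared regions for WT) at a ratio of 1.2, 156 and 138 (0.294%) at a ratio of 2, 357 and 322 in regions of at least 500 bp, and 464 and 358 (1.12%) without the weakest 25% of each list. The WT share was 1.17% where each library had to cover 25% of the region. With 1 library left out, counts ran from 2063 to 3708 for WT (3.66% to 6.75%) and from 1967 to 3132 for KO. The share at gene ends was 19.3% from 500 bp upwards (35.3% of all shared regions of that size) and 27% within 5 kb (36.5% of all), and ran from 11.5% to 13.8% with 1 library left out. The share inside genes was 58.0% with all annotated genes (54.0% of all shared regions) and ran from 48.7% to 52.4% with 1 library left out. From first to last peak base the ratio fell below 1 at Asf1a (0.94), Sft2d1 (0.91), Slc35c2 (0.99) and Gm17019 (0.98), where at least 1 KO library had peaks on either side of a gap. Of the 60 regions named by rule, no other fell below 1 under an alternative that gave it a value. Of the 14 other regions broader in WT that the text names, none fell below 1 either, and the lowest was Ramp1, at 1.0 from first to last peak base. The ratio could not be computed for the named regions that a stricter filter removed: 31 of 60 had a value without the weakest 25% of each list. With the replicate number as a block (the ratio required within each same-numbered pair), counts were 1156 (2.18%) for WT and 937 for KO, a looser rule by construction. Deviations of same-numbered libraries had a correlation of 0.01 across shared regions, and the numbers were not taken to pair the libraries. A correlation over regions does not register a shift common to a whole library. It therefore cannot decide whether same-numbered libraries share such a shift. The block gave no value for the share that follows genotype. Peak lists hold no reads, so depth limits every width by an unknown amount.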
